A study of Trichoderma reesei with 8 samples.

Results

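The light response of the wildtype strain QM6a of the filamentous ascomycete Trichoderma reesei was described from its 4 RNA-seq libraries, which make up 4 of the 8 libraries of the series. They were chosen by their labels alone, as the libraries of QM6a from constant light and from constant darkness, with 2 cultures given as biological replicates in each condition. The other 4 libraries are of Δypr2, a QM6a derivative without ypr2, a gene for a transcription factor that lies in the gene cluster for sorbicillinoid biosynthesis, and they are used here only to set the wildtype response against that of the mutant. The light cultures grew under 1600 lx, and the dark cultures were harvested under a red safety light. All were kept at 28 °C and 200 rpm for 72 h in liquid minimal medium with 1% cellulose as carbon source and 0.1% peptone, after precultures of 14 days in darkness. Conditions were compared at this 1 time only, and the time course of the response was not measured. Since whole mycelium was extracted, fewer cells that express a gene and less RNA of it per cell cannot be told apart.

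In fungi blue light is received by the White Collar proteins, a pair of transcription factors of which one binds a flavin, and in Trichoderma they are called BLR1 and BLR2. ENV1, a smaller flavin-binding protein of the same LOV domain class, dampens their output after exposure and is among their best known targets, together with the DNA photolyase gene phr1. Trichoderma reesei secretes cellulases and hemicellulases when it grows on cellulose, and light is known as one of the signals that set how much of these enzymes is made.

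The 2 light libraries held 17.7 and 16.9 Mio assigned reads and the 2 dark libraries 19.2 and 18.4 Mio, so that a single read corresponded to between 0.0543 and 0.0579 counts per 1 Mio reads (CPM). Replicates correlated at Pearson r = 0.997 in light and 0.995 in darkness across genes on the log2 CPM scale, and the first principal component of the 4 wildtype libraries, which separated light from darkness, took 97.6% of their variance. The label of the mutant was borne out by its target, as ypr2 had 0 and 0 counts in light and 10 and 6 counts in darkness in Δypr2, against 566 and 548 counts in light and 3040 and 2636 counts in darkness in QM6a. A gene was called when light and darkness differed at least 2-fold at an adjusted p under 0.01 (edgeR quasi-likelihood test, Benjamini-Hochberg over the 8469 genes tested).

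Light changed 2019 of the 8469 genes, or 23.8%, with 796 genes (9.40%) raised and 1223 genes (14.4%) lowered. This excess of lowered genes depends on scaling and limit, as quantile normalization gave 1087 raised and 1049 lowered genes. Without a fold limit the counts were 2549 raised and 2647 lowered. In the values reported here the lowered genes also moved further. Their median log2 fold change was -2.27, against 1.60 for the raised genes, while the median over all genes tested was 0.00. With genes at 0 reads in 1 condition taken at their bound against 3 reads over both libraries, 695 of the lowered genes changed at least 4-fold, 256 at least 16-fold and 38 at least 256-fold, whereas of the raised genes 271 changed at least 4-fold, 74 at least 16-fold and 1 at least 256-fold. The median of the lowered genes was -2.26 at these bounds. Values of the 2 conditions did not overlap for any of the called genes, but this also held for 7481 of all 8469 genes. Without the fold limit 5196 genes (61.4%) passed the adjusted p, so that small and reproducible differences reached well beyond the called genes.

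In terms of the RNA pool, the raised genes took 15.6% and 15.9% of the assigned reads in light, against 2.71% and 2.71% in darkness. The lowered genes took 5.59% and 5.39% of the reads in light, against 24.1% and 23.8% in darkness. The change reached the most abundant transcripts, where abundance means CPM and is not corrected for transcript length. Of the 100 most abundant genes in light 19 were raised and 3 lowered. Of the 100 most abundant genes in darkness 0 were raised and 28 were lowered, and 67 genes stood among the first 100 in both conditions. Moreover, 29 genes had no read at all in both light libraries but at least 20 reads in each dark library, while 0 genes showed the opposite.

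**Figure D1:**
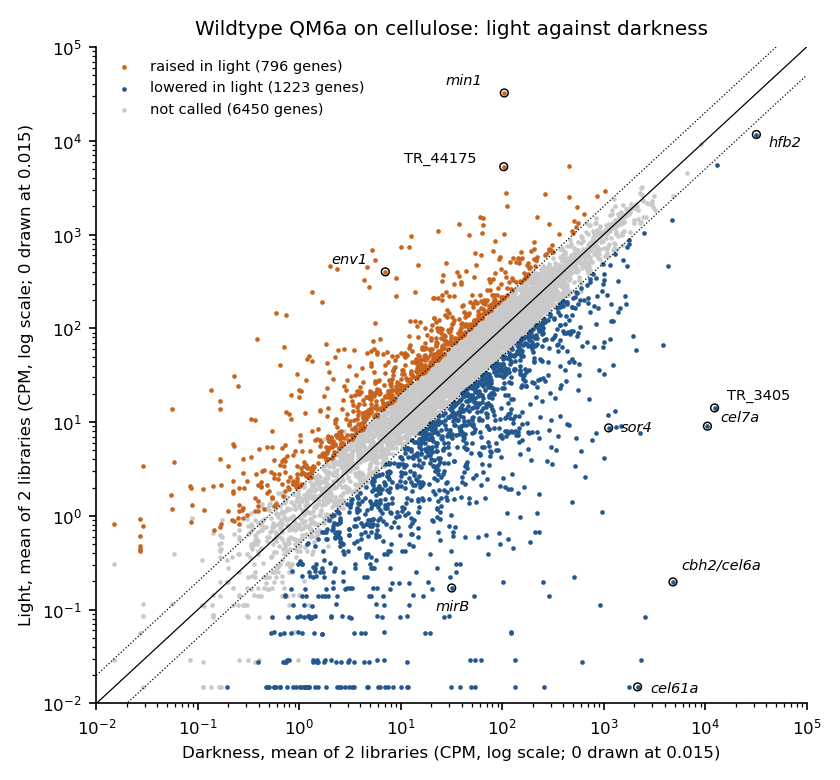
Mean CPM of the 2 light libraries (vertical axis) against the mean of the 2 dark libraries (horizontal axis) for the 8469 genes tested in QM6a, both on log scales, with the 796 raised genes in orange, the 1223 lowered genes in blue and uncalled genes in grey; the solid line marks equal levels and the dotted lines 2-fold differences. The lowered genes reach down to 0 CPM in light, among them cel61a with 2157 CPM in darkness, whereas min1 has the highest CPM of the raised genes in light.

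The known light targets marked the 2 conditions as labelled. The photoreceptor gene env1 (TR_81609) had 379.6 and 420.0 CPM in light, against 8.69 and 5.38 CPM in darkness, a log2 fold change of 5.82 ± 0.17 (SE; adjusted p = 3.7e-09). Both light values lay more than an order of magnitude above both dark values. The photolyase gene phr1 (TR_107680), whose product repairs UV-damaged DNA, had 93.99 and 93.2 CPM in light, against 23.6 and 23.4 CPM in darkness, and a log2 fold change of 1.99 ± 0.06. The White Collar genes themselves moved little. blr1 (TR_121962) had 162 and 174 CPM in light, against 170.2 and 166 CPM in darkness, with overlapping values (log2 fold change 0.00 ± 0.06), and blr2 (TR_124343) had 141 and 147 CPM in light, against 94.2 and 93.8 CPM in darkness, a log2 fold change of 0.61 ± 0.05 that stayed under the 2-fold limit. Of these 4 genes 2 were thus called, both raised, against 9.40% raised and 14.4% lowered among all genes tested. The gene TR_21509, annotated as a blue light inducible protein, had 103 and 91.5 CPM in light, against 26.5 and 24.3 CPM in darkness, and vel1 (TR_122284), the gene of the velvet protein that in filamentous fungi couples light with development and secondary metabolism, had 634 and 697 CPM in light, against 188 and 199.9 CPM in darkness. In both the light values were the higher ones, with log2 fold changes of 1.94 ± 0.10 and 1.78 ± 0.10 (SE).

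Most of the named genes for plant cell wall degrading enzymes were lowered in light, by very different amounts. Of 20 such genes tested 17 were lowered in light, 1 was raised and 2 were not called, with a median log2 fold change of -9.97. Among all genes tested 14.4% were lowered and 9.40% raised. Only listed genes with a name or annotation were counted, which held for 4 of 15 hemicellulase genes listed by identifier. The same held for 6 of 8 cellulase genes and 5 of 7 β-glucosidase genes. The main cellobiohydrolase gene cel7a (TR_123989) had 10.01 and 8.08 CPM in light, against 10767 and 10291 CPM in darkness, so that light left 0.0859% of the dark level (log2 fold change -10.18 ± 0.33, SE, n = 2 each). The second cellobiohydrolase gene cbh2/cel6a (TR_72567) fell to a few reads in light, with 0.164 and 0.231 CPM in light, against 4836 and 4799 CPM in darkness. Both transcripts were among the most abundant ones in darkness, and cbh2/cel6a was close to the limit of detection in light. The endoglucanase gene cel7b (TR_122081) had 1.15 and 1.04 CPM in light, against 977 and 942 CPM in darkness, and a log2 fold change of -9.77 ± 0.63.

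For several of these genes light left no read, and only a lower bound or an interval can be given. The lytic polysaccharide monooxygenase genes cel61a (TR_73643) and cel61b (TR_120961) had 0 reads in both light libraries, against 2220.1 and 2093 CPM for cel61a and 1827 and 1685 CPM for cel61b in darkness. Set against 3 reads over both light libraries, they were at least 25632-fold and at least 20875-fold lower in light. The endoglucanase gene cel12a (TR_123232) and cip2 (TR_123940), which encodes a glucuronoyl esterase, were likewise at 0 in light and at least 3092-fold and at least 1565-fold lower. The cellulose-binding protein gene cip1 (TR_73638) and the acetyl xylan esterase gene axe1 (TR_73632) had 1 read in light each. The ratio of darkness over light was 83334 (95% exact interval 14956 to 3291560.0) for cip1 and 21844 (95% exact interval 3920.2 to 862843) for axe1, and 30176 (95% exact interval 10325 to 146327) for the endoglucanase gene cel5a (TR_120312), which had 3 reads in light. These intervals cover counting error only.

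The β-glucosidases, which release glucose from cellobiose, ranged more widely. cel1a (TR_120749) had 7.71 and 7.73 CPM in light, against 2273 and 2261 CPM in darkness, and cel3a (TR_76672) had 1.86 and 1.56 CPM in light, against 239 and 222 CPM in darkness, with log2 fold changes of -8.20 ± 0.27 and -7.07 ± 0.25. cel1b (TR_22197) and cel3c (TR_82227) were lowered less, with log2 fold changes of -4.15 ± 0.20 and -3.38 ± 0.14. cel3b (TR_121735) had 823 and 858 CPM in light, against 897 and 989 CPM in darkness, and was not called, although its light values were the lower ones. Of the hemicellulases, the xylanase gene xyn2 (TR_123818) had 3.12 and 2.08 CPM in light, against 678 and 623 CPM in darkness, and the mannanase gene man5a (TR_56996) 0.109 and 0.115 CPM in light, against 996 and 859 CPM in darkness. Both were near the bottom of the expressed range in light. The acetyl xylan esterase gene axe2 (TR_44214) was lowered less, with a log2 fold change of -1.19 ± 0.05. The single raised gene was agl1 (TR_72632), an α-galactosidase gene, with 15.9 and 14.8 CPM in light, against 7.33 and 6.89 CPM in darkness (log2 fold change 1.11 ± 0.17), and the endoglucanase gene cel5b (TR_82616) had 85.2 and 85.8 CPM in light, against 68.6 and 79.9 CPM in darkness, and was not called.

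**Figure D2:**
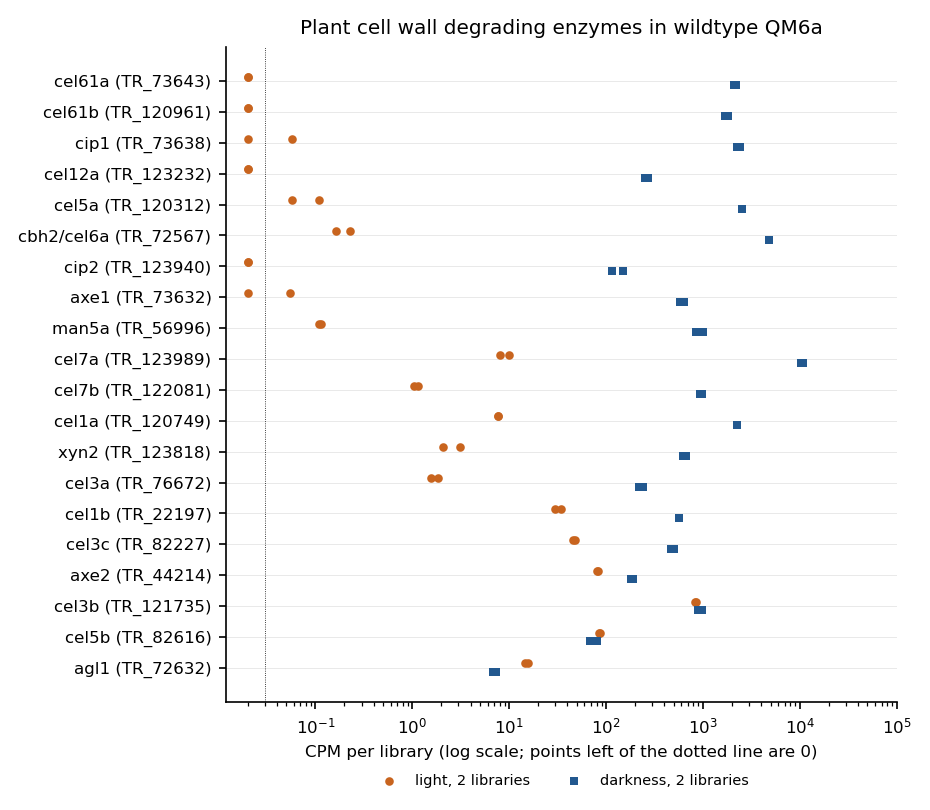
CPM in each of the 4 wildtype libraries (horizontal axis, log scale) for the 20 plant cell wall degrading enzymes, ordered by fold change, with light as orange circles and darkness as blue squares. Light and dark values stand far apart for most genes, overlap in none of the 17 lowered genes, and lie in the opposite order only for cel5b and agl1.

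Genes for sugar uptake moved in both directions. Of 9 sugar transporter genes 4 were raised and 3 lowered. Annotations for these and for the other groups taken from the study's gene sheet cover only genes that the study had picked from these same libraries as changed in Δypr2, so that their counts are not independent evidence for a direction. Of the 1120 tested genes of this sheet 31.4% were raised and 27.8% lowered, and its groups are read against these shares. The putative lactose permease gene TR_3405 had 14.1 and 14.3 CPM in light, against 12650.0 and 12104 CPM in darkness, which made it one of the most abundant transcripts in darkness only (log2 fold change -9.77 ± 0.40). TR_46819 had 0.601 and 0.750 CPM in light, against 202 and 216 CPM in darkness, and TR_69957 had 0.219 and 0.0577 CPM in light, against 53.1 and 51.6 CPM in darkness. Both were reduced to a few reads in light, and for TR_69957 with 5 light reads the log2 fold change of -8.48 ran over -9.67 to -7.86 when single wildtype libraries were left out. In the opposite direction, the general substrate transporter gene TR_44175 had 4963 and 5610.5 CPM in light, against 113 and 93.9 CPM in darkness, a log2 fold change of 5.68 ± 0.18. TR_65153, TR_62380 and TR_105260 were raised by log2 fold changes of 3.14 ± 0.17, 2.21 ± 0.16 and 1.24 ± 0.16. Of 43 annotated major facilitator transporters as a whole 17 (39.5%) were raised and 9 (20.9%) lowered, which is near the shares of the sheet.

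The largest rises were found mostly for genes with low levels in darkness. min1 (TR_34493) had 32718 and 31934 CPM in light, against 191 and 18.6 CPM in darkness, and it had the highest CPM of all raised genes in light. Its value in dark replicate 1 was 10.2 times that in dark replicate 2, and the log2 fold change of 8.27 ± 0.70 (SE) moved to 10.76 without dark replicate 1 and to 7.40 without dark replicate 2. TR_111442, annotated as Epl1/Sm1 after a cerato-platanin of Trichoderma that elicits plant defence, had 412 and 445 CPM in light, against 3.20 and 1.45 CPM in darkness. TR_72183, listed in the study's sheet among effector proteins for competition and defence, had 450.2 and 467 CPM in light, against 3.04 and 0.926 CPM in darkness. In both genes dark replicate 1 was the higher of the dark values, and the log2 fold changes of 7.51 ± 0.31 and 7.83 ± 0.35 ran over 7.06 to 8.20 and 7.23 to 8.94 when single wildtype libraries were left out. TR_103695, which carries no annotation in the sources used here, had 143 and 148 CPM in light, against 0.706 and 0.463 CPM in darkness (log2 fold change 7.94 ± 0.35).

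The higher residual level in dark replicate 1 was common to this group. Of the 52 genes raised at least 16-fold with at least 20 CPM in light, 42 had a higher value in dark replicate 1 than in dark replicate 2. The median ratio of the 2 dark values was 1.27, and in 9 genes it was at least 2. The dark levels were small beside the light levels in either library, at a median of 2.60% of the light level in dark replicate 1 and 2.44% in dark replicate 2, and the part of this library difference in the sizes of the folds was not tested beyond the values without it.

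Several enzymes and regulators were among the genes raised most. The coenzyme A transferase gene TR_50616 had 521 and 545 CPM in light, against 5.59 and 5.50 CPM in darkness (log2 fold change 6.58 ± 0.25). The Myb-type transcription factor gene TR_34221 had 13.1 and 14.3 CPM in light, against 0.217 and 0.116 CPM in darkness (log2 fold change 6.29 ± 0.51), and the γ-glutamyltranspeptidase-like gene TR_69811 had 30.3 and 32.3 CPM in light, against 0.109 and 0.347 CPM in darkness (log2 fold change 7.08 ± 0.54, or 6.47 to 8.09 without single wildtype libraries). In all 3 both light values were far above both dark values. Further raised genes of very high CPM in light carried no annotation. TR_122487 had 5149 and 5587 CPM in light, against 460.2 and 451 CPM in darkness. TR_109078 had 2688 and 2795 CPM in light, against 118 and 99.7 CPM in darkness. TR_47286 had 2651 and 2773 CPM in light, against 268 and 258 CPM in darkness. Their log2 fold changes of 3.56 ± 0.10, 4.65 ± 0.09 and 3.37 ± 0.08 were many times their SE.

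Genes of the cell surface were among the most abundant transcripts that were lowered. Hydrophobins are small secreted proteins that coat hyphae and spores and make them water repellent. All 4 hydrophobin genes tested were lowered in light, against 14.4% of all genes tested. They come from a list of 7 hydrophobin and cerato-platanin genes, of which 5 had a name or annotation. Among the 4, TR_106538 and TR_104293 carry their annotation only in the study's sheet, which was picked on these libraries. hfb2 (TR_119989) had 12265 and 11047 CPM in light, against 30817 and 33119.9 CPM in darkness, and hfb3 (TR_123967) had 1468 and 1359 CPM in light, against 4551 and 4958 CPM in darkness, with log2 fold changes of -1.46 ± 0.08 and -1.75 ± 0.07. hfb2 had the highest CPM in darkness of the genes named here, and in light it was still far above most genes. The hydrophobin gene TR_106538 fell further, with 25.8 and 24.1 CPM in light, against 356 and 395 CPM in darkness, while TR_104293 had 3 reads in light, and its ratio of darkness over light was 15.6 (95% exact interval 5.03 to 78.6). TR_111442, a cerato-platanin by its annotation as Epl1/Sm1 but no member of that list, moved in the opposite direction. The study describes epl1/sm1 as lower in Δypr2. In darkness, however, TR_111442 had 8.26 and 6.44 CPM in Δypr2, against 3.20 and 1.45 CPM in the wildtype. Whether TR_111442 is the gene that the study means was not tested. hex1 (TR_123056), which encodes the major protein of the Woronin body that plugs septal pores, had 5498 and 5654 CPM in light, against 12684 and 13438 CPM in darkness, and a log2 fold change of -1.23 ± 0.07, which was -0.85 and under the limit after quantile normalization. TR_121350, related to the CipC proteins, had 67.4 and 63.8 CPM in light, against 4241 and 3394 CPM in darkness, and the phytase gene TR_120821 had 432 and 498 CPM in light, against 4164 and 4479 CPM in darkness. For both the dark values were the higher ones in every library, with log2 fold changes of -5.86 ± 0.13 and -3.22 ± 0.21.

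Chitinases of glycoside hydrolase family 18 degrade chitin, the main structural polymer of the fungal cell wall, and they moved in both directions. Of 13 chitinase genes tested 3 were raised, 3 were lowered and 7 were not called, against 9.40% raised and 14.4% lowered among all genes tested. chi18-9 (TR_72339) had 123 and 122 CPM in light, against 33.8 and 32.7 CPM in darkness, and chi18-13 (TR_119859) and chi18-16 (TR_68347) were raised by log2 fold changes of 1.10 ± 0.14 and 1.30 ± 0.24. Both calls are fragile, as chi18-13 fell under the limit without light replicate 2 (0.97) or dark replicate 2 (0.99) and chi18-16 had an adjusted p of 0.014 in DESeq2. chi18-rel1 (TR_65162) was lowered, with 15.9 and 13.8 CPM in light, against 72.9 and 80.7 CPM in darkness, as were chi18-12 (TR_43873) and chi18-15 (TR_59791), which had under 1 CPM in light. The log2 fold change of chi18-15, -4.26 ± 0.62, rests on 10 light reads and ran over -5.50 to -3.63 when single wildtype libraries were left out. The family 18 gene chi18-18 (TR_66041), which carries its name only in the study's sheet, had 1.37 and 1.44 CPM in light, against 502 and 479 CPM in darkness, and was lowered most of the family 18 genes named here (log2 fold change -8.44 ± 0.66).

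Part of the called genes lay side by side. Along the scaffolds 32 runs of at least 3 neighbouring raised genes were found, which held 103 genes or 13.0% of the raised genes, and 83 runs of lowered genes, which held 323 genes or 26.5% of the lowered genes. The longest runs of raised genes had 4 members. One of them began with env1 and went on with TR_51868, TR_123758 and TR_111351, which were raised by log2 fold changes of 1.32, 1.18 and 1.00 only, TR_111351 being at the limit and not called without light replicate 1 or dark replicate 2 (0.98). In another, TR_23238, TR_68706 and TR_81623 were raised by 2.76, 2.92 and 3.16, and the fourth gene TR_111357 by 6.23 ± 0.18, with 915 and 996 CPM in light, against 15.4 and 10.02 CPM in darkness. The runs of lowered genes were longer, with up to 12 members. The 12-gene run extended between TR_111736 and TR_69537, the last of which had an adjusted p of 0.011 without light replicate 1, and its members with the highest CPM were TR_69652 and TR_123946. TR_69652 had 6.56 and 4.27 CPM in light, against 231 and 370.1 CPM in darkness. TR_123946 had 181 and 178 CPM in light, against 1128 and 1227 CPM in darkness. The next longest runs had 11, 10 and 8 genes, and the 10-gene run between TR_75247 and TR_56682 had log2 fold changes from -7.07 in TR_75247 to -1.13 in TR_56717.

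The run of 11 lowered genes covered the cluster for sorbicillinoids, yellow polyketides of Trichoderma, together with its cellulase neighbours. It held the transporter gene sor4 (TR_43701) with 8.91 and 8.42 CPM in light, against 1215 and 1023 CPM in darkness, and the regulator gene ypr2 (TR_102497) with 30.9 and 31.6 CPM in light, against 165 and 153 CPM in darkness. Their log2 fold changes were -7.01 ± 0.22 and -2.34 ± 0.08, and in both the dark values were far above the light values. sor5 (TR_73623) was at 0 in light and at least 101-fold lower, and the alcohol oxidase gene sor7 (TR_73631) had a log2 fold change of -5.11 ± 1.25, with an adjusted p of 0.027 in limma-voom. TR_73621, another gene of sorbicillin biosynthesis, had a log2 fold change of -2.30 ± 0.25. At the other end of this run followed axe1, cip1 and cel61a, whose values are given above with the cell wall degrading enzymes.

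**Figure D3:**
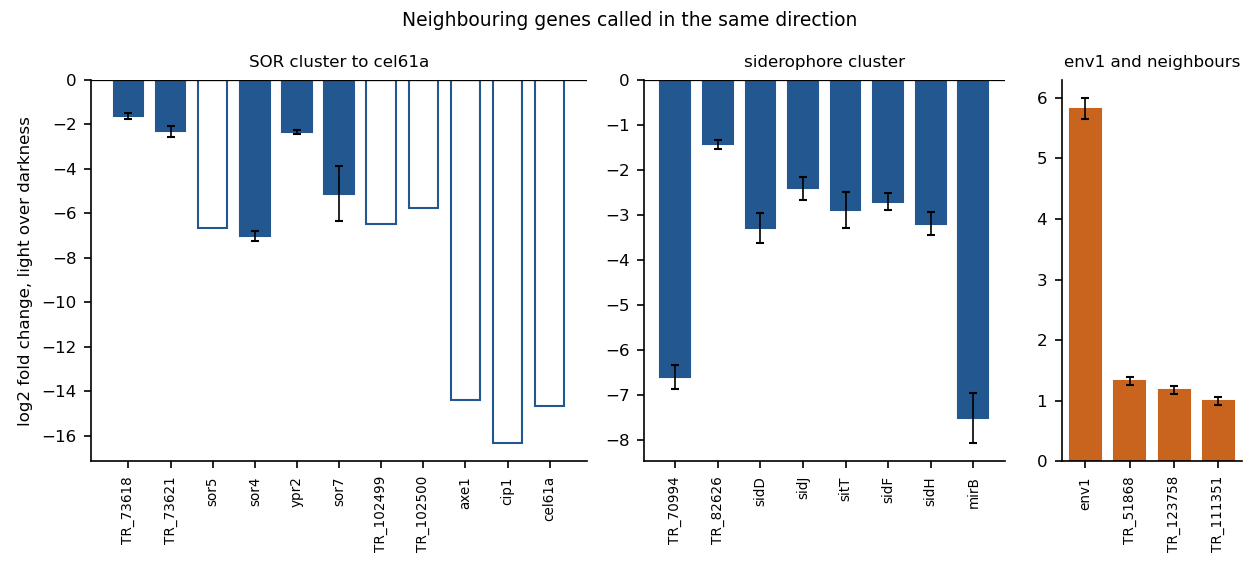
Log2 fold change of light over darkness (vertical axis; error bars, SE) in gene order for 3 runs of neighbouring genes called in 1 direction: the sorbicillinoid cluster up to cel61a with 11 genes, the siderophore cluster with 8 genes and env1 with its 3 neighbours. Open bars stand for genes with 0 to 3 light reads and show the bound against 3 reads or the ratio of reads, without SE. Members of a run share the direction but differ several-fold in size, and env1 stands apart from its neighbours.

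Genes for iron supply moved in both directions. Siderophores are secreted iron chelators, and the 6 homologues of the fusarinine-type siderophore cluster of Aspergillus fumigatus lay in a run of 8 lowered genes. The transporter gene mirB (TR_71008) had 0.109 and 0.231 CPM in light, against 28.7 and 34.8 CPM in darkness, and a log2 fold change of -7.50 ± 0.56, which rests on 6 light reads and ran over -8.10 to -7.06 when single wildtype libraries were left out. The peptide synthetase gene sidD (TR_71005) had 0.766 and 0.462 CPM in light, against 6.19 and 5.91 CPM in darkness. For the transacylase gene sidF (TR_82628) the values were 4.26 and 3.17 CPM in light, against 22.5 and 26.2 CPM in darkness. The esterase gene sidJ (TR_112590) had 5.25 and 2.65 CPM in light, against 19.1 and 22.9 CPM in darkness. In each of these genes both dark values exceeded both light values. sidH (TR_6085) and the ABC transporter gene sitT (TR_71010) had log2 fold changes of -3.19 ± 0.26 and -2.88 ± 0.40, the value of sitT running over -3.51 to -2.46 without single libraries. TR_60751, the peptide synthetase gene that the study names in connection with siderophores, had 0.656 and 0.692 CPM in light, against 33.4 and 31.7 CPM in darkness (log2 fold change -5.58 ± 0.24).

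Reductive uptake, in which a ferroxidase and a permease import iron without a chelator, is represented by 2 gene pairs, and they moved in opposite directions. The ferroxidase gene fet3a (TR_102820) had 57.4 and 52.8 CPM in light, against 4.07 and 5.21 CPM in darkness, and the permease gene ftr1a (TR_54962) 62.4 and 56.4 CPM in light, against 2.34 and 2.43 CPM in darkness. Their log2 fold changes were 3.57 ± 0.20 and 4.64 ± 0.18. Of the other pair, fet3b (TR_5119) had 17.99 and 18.3 CPM in light, against 63.4 and 64.9 CPM in darkness, and ftr1b (TR_80639) had 24.4 and 24.8 CPM in light, against 161 and 153 CPM in darkness, with log2 fold changes of -1.82 ± 0.08 and -2.67 ± 0.10. The iron regulator genes sreA (TR_4231) and hapX (TR_77191) had log2 fold changes of 0.41 ± 0.16 and 0.50 ± 0.06 and were not called.

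Of the genes for secondary metabolism, the polyketide synthase gene pks4 (TR_82208) had 12.5 and 10.2 CPM in light, against 238 and 236 CPM in darkness (log2 fold change -4.38 ± 0.12). The predicted paracelsin synthase gene TR_123786 was raised, with 342 and 333 CPM in light, against 70.1 and 76.4 CPM in darkness, and the predicted alamethicin synthase gene TR_23171, which encodes an enzyme for another membrane-active peptide, was lowered, with 52.7 and 50.3 CPM in light, against 114 and 127 CPM in darkness. Their log2 fold changes were 2.20 ± 0.11 and -1.23 ± 0.15. Words for cytochrome P450 matched 12 genes of the study's sheet, fewer than the study counts. Of these 3 were raised and 5 lowered, against 31.4% and 27.8% of the sheet. With light replicate 1 or dark replicate 2 left out, 3 of the 12 were lowered.

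In carbon metabolism genes moved in both directions. Of 7 genes for citrate, acetyl-CoA and the glyoxylate cycle 2 were raised and 2 lowered, against 9.40% and 14.4% of all genes tested. Words for the tricarboxylic acid and glyoxylate cycles matched 8 genes of the study's sheet. Of these 5 were raised and 2 lowered, against 31.4% and 27.8% of the sheet. These 8 share the 2 raised genes of the first group and include the coenzyme A transferase gene TR_50616. The isocitrate lyase gene acu3 (TR_21758) of the glyoxylate cycle had 564 and 560.2 CPM in light, against 151 and 163 CPM in darkness. The malate synthase gene acu9 (TR_79271) of the same cycle had 342 and 355 CPM in light, against 104 and 114 CPM in darkness. Both were raised, with log2 fold changes of 1.84 ± 0.07 and 1.68 ± 0.08. Acetyl-CoA synthetase, acs1 (TR_73774), was lowered, with 178 and 155 CPM in light, against 1426 and 1436 CPM in darkness (log2 fold change -3.11 ± 0.10). Citrate synthase, cit1 (TR_122296), was also lowered (log2 fold change -1.25 ± 0.06). The gene for phosphoenolpyruvate carboxykinase, TR_124115, which was picked out after its values were seen, had 1246 and 1311 CPM in light, against 62.3 and 65.8 CPM in darkness (log2 fold change 4.32 ± 0.14). It catalyses the first committed step of gluconeogenesis, and its light values were both the higher ones. Of 9 genes grouped under pentose and galactose catabolism 1 was raised and 1 lowered, against 9.40% and 14.4% of all genes tested. The raised one was lxr1 (TR_74194), which the study describes as a mannitol dehydrogenase gene. It had 631 and 642 CPM in light, against 48.1 and 59.9 CPM in darkness. The xylose reductase gene xyl1 (TR_107776) was lowered, with 158 and 173 CPM in light, against 907 and 840.3 CPM in darkness.

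Catalases, which remove hydrogen peroxide, were split. Of 4 catalase genes of the study's sheet 2 were raised and 2 lowered, against 31.4% and 27.8% of the sheet. The group is too small to be set apart from these shares. TR_67538 (cat-1) had 21.2 and 25.8 CPM in light, against 3.97 and 3.94 CPM in darkness, and TR_67013 (cat-4) had 6.73 and 7.27 CPM in light, against 1.74 and 2.37 CPM in darkness. TR_120371 (cat-7) was lowered, with 0.328 and 0.231 CPM in light, against 3.31 and 3.76 CPM in darkness, and TR_58472 (cat-3) was at 0 in light and at least 29.3-fold lower. Of 8 heat shock proteins annotated in the sheet 4 (50%) were raised and 1 (12.5%) was lowered, its call being lost without light replicate 2. Of 5 genes annotated there with conidiation 2 were raised and 2 lowered, or 1 lowered without dark replicate 1. Both are small groups to be read against the same 31.4% and 27.8%. Their part in the other results was not tested.

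Sensing and transcription factors gave a mixed picture. Words for G protein-coupled receptors matched 13 tested genes of the study's sheet, among them TR_67334, which is also counted with the sugar transporters. The study counts more such receptors, so this group is incomplete. Of the 13 genes 5 (38.5%) were raised and 3 (23.1%) lowered, near the 31.4% and 27.8% of the sheet. The PTH11-type receptor gene TR_109146 had 12.6 and 14.7 CPM in light, against 0.0543 and 0.0579 CPM in darkness, and its ratio of light over darkness was 243 (95% exact interval 67.02 to 2016) with 2 dark reads. TR_72627 and TR_64018 were raised by log2 fold changes of 3.16 ± 0.19 and 2.53 ± 0.15, whereas TR_69904 was lowered, with 0.547 and 0.750 CPM in light, against 94.95 and 92.6 CPM in darkness (log2 fold change -7.17 ± 0.32). Of 10 genes for heterotrimeric G proteins and cAMP signalling, which act downstream of such receptors, 0 were called by edgeR. DESeq2, limma-voom and the edgeR exact test also called 0, but 76.2% of all genes tested were not called either. At an unadjusted p under 0.05 without a fold limit 4 of the 10 were higher and 5 lower in light. Of 49 zinc cluster transcription factors, again from the genes picked on Δypr2, 23 (46.9%) were raised and 4 (8.16%) lowered, against 31.4% and 27.8% of the sheet. The sheet pools genes higher and lower in Δypr2, and its choice used the same wildtype dark libraries. A group picked mostly in 1 of these directions can differ from the pooled shares by that choice alone. No direction is therefore read from these counts.

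**Figure D4:**
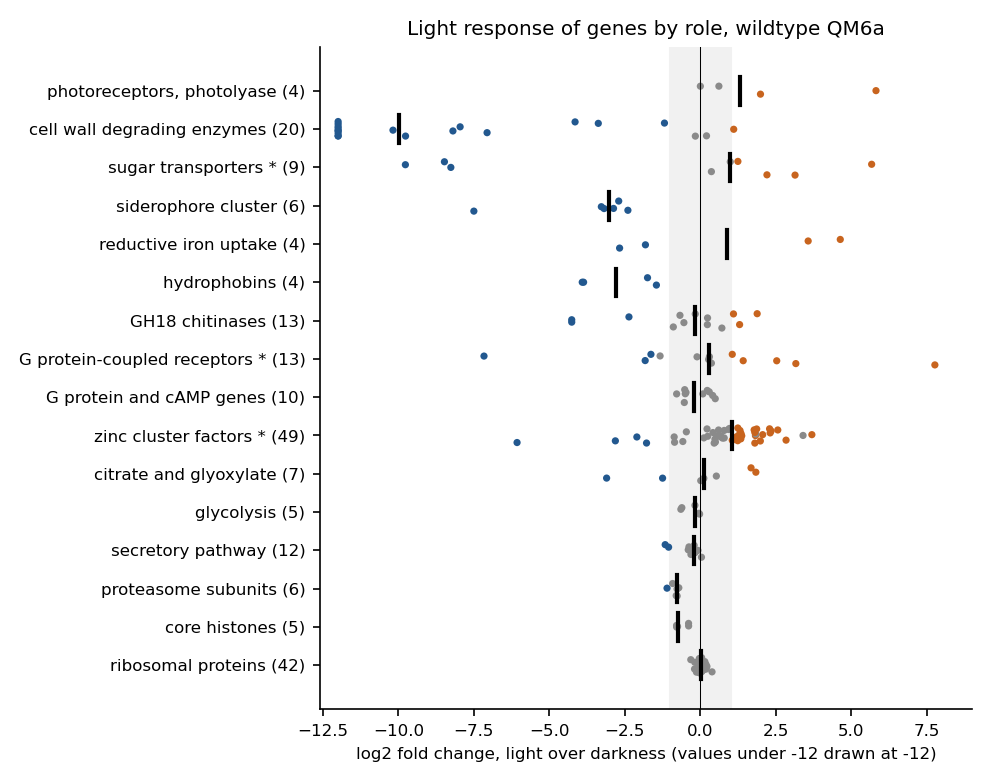
Log2 fold change of light over darkness (horizontal axis) for the members of 16 gene groups, 1 point per gene, orange if raised, blue if lowered and grey if not called; the bar marks the median, the shaded band changes under 2-fold, the number in parentheses the genes tested, and an asterisk groups from the study's gene sheet, which were picked on these libraries. Cell wall degrading enzymes lie at the far left with a median of -9.97, while the 42 ribosomal protein genes stay within the band.

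Among all genes tested 76.2% were not called, and the groups for basic cell functions by RefSeq symbol are read against this share. The 42 ribosomal protein genes had log2 fold changes between -0.32 and 0.39 with a median of 0.04, and 0 of them were called by edgeR, 0 by DESeq2, limma-voom or the edgeR exact test, with 7 higher and 3 lower in light at an unadjusted p under 0.05. The 5 core histone genes lay between -0.79 and -0.39 and the 6 proteasome subunit genes between -1.10 and -0.71. All 5 histone genes passed an unadjusted p under 0.05 without a fold limit, but 0 were called by edgeR, DESeq2, limma-voom or the edgeR exact test. Of the proteasome genes psa5 (TR_55644) was called, with 115 and 114 CPM in light, against 247 and 245 CPM in darkness. Of 12 genes of the secretory pathway 2 (16.7%) were lowered, near the 14.4% of all genes, the protein disulfide isomerase gene pdi1 (TR_122415) with 847 and 884 CPM in light, against 1725 and 1863 CPM in darkness, and the syntaxin gene sso1 (TR_63754) with 70.6 and 64.2 CPM in light, against 153 and 149 CPM in darkness. Their log2 fold changes were -1.05 ± 0.06 and -1.16 ± 0.06, and pdi1 was just under the limit without dark replicate 2 and under it when libraries were scaled to their totals only (-0.93), as was psa5 (-0.99). Of 10 small GTPase genes the Ras-related rsr1 (TR_76880) was lowered, with a log2 fold change of -1.60 ± 0.08. The 5 genes listed for glycolysis and gluconeogenesis did not include the raised phosphoenolpyruvate carboxykinase gene TR_124115. Of these 5 genes 0 were called by edgeR, DESeq2, limma-voom or the edgeR exact test, with 0 higher and 2 lower in light at an unadjusted p under 0.05.

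To set the wildtype response against that of Δypr2, the difference of the light response was tested as Δypr2 minus wildtype, and it was called for 1212 of 8469 genes (14.3%). As the wildtype libraries enter both the choice of the light-regulated genes and this difference, the counts are a description. The study also describes less biomass of Δypr2 than of the wildtype in darkness, and the deletion of ypr2 and the growth of the dark cultures cannot be told apart in this comparison. Of the 796 raised genes 386 differed between the strains, with a negative difference in 375 and a stronger rise in Δypr2 in 11. Among the 375 were 39 genes that were called as lowered by light in Δypr2 itself, and the others had a weaker rise or no called response there. Of the 1223 lowered genes 454 differed, with a positive difference in 418 and a stronger fall in Δypr2 in 36. Among the 418 were 13 genes that were called as raised by light in Δypr2. The median log2 fold change of the raised genes was 0.53 in Δypr2 and 1.60 in the wildtype, and that of the lowered genes -1.53 in Δypr2 and -2.27 in the wildtype.

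In the siderophore cluster the responses of the strains had opposite signs. mirB had 1.95 and 2.42 CPM in light, against 0.435 and 0.263 CPM in darkness in Δypr2, so that its log2 fold change was 2.67 ± 0.40 in Δypr2 and -7.50 ± 0.56 in the wildtype (difference 10.17 ± 0.69, adjusted p = 6.6e-07). The same turn of direction was seen for sidH, sidJ, sidF, sitT and sidD, with differences between 5.49 ± 0.48 and 8.51 ± 0.59. sor4 had 148 and 158 CPM in light, against 87.1 and 53.96 CPM in darkness in Δypr2, and the difference from the wildtype response was 8.13 ± 0.29. By their values, these genes were lower in the dark cultures and higher in the light cultures of Δypr2 than in those of the wildtype. For hfb2 the log2 fold change was 0.97 ± 0.08 in Δypr2 and -1.46 ± 0.08 in the wildtype (difference 2.42 ± 0.12).

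Among the raised genes, the aspartyl protease gene TR_53961 had 28.5 and 26.4 CPM in light, against 26.03 and 27.6 CPM in darkness in Δypr2. In the wildtype it had 51.3 and 48.9 CPM in light, against 0.978 and 1.51 CPM in darkness. The 4 values in Δypr2 lay close together, and the difference was -5.30 ± 0.21. lxr1 had a log2 fold change of 0.42 ± 0.09 in Δypr2 and 3.56 ± 0.09 in the wildtype, and acu3 one of -0.03 ± 0.07 in Δypr2 and 1.84 ± 0.07 in the wildtype. env1 and phr1, by contrast, rose in both strains, with 5.13 ± 0.16 in Δypr2 and 5.82 ± 0.17 in the wildtype for env1, and 2.89 ± 0.07 in Δypr2 and 1.99 ± 0.06 in the wildtype for phr1. Their differences of -0.69 ± 0.24 and 0.90 ± 0.09 were not called. For the cellobiohydrolase gene cel7a the log2 fold change was -9.06 ± 0.31 in Δypr2 and -10.18 ± 0.33 in the wildtype (difference 1.12 ± 0.45, adjusted p = 0.063, not called).

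**Figure D5:**
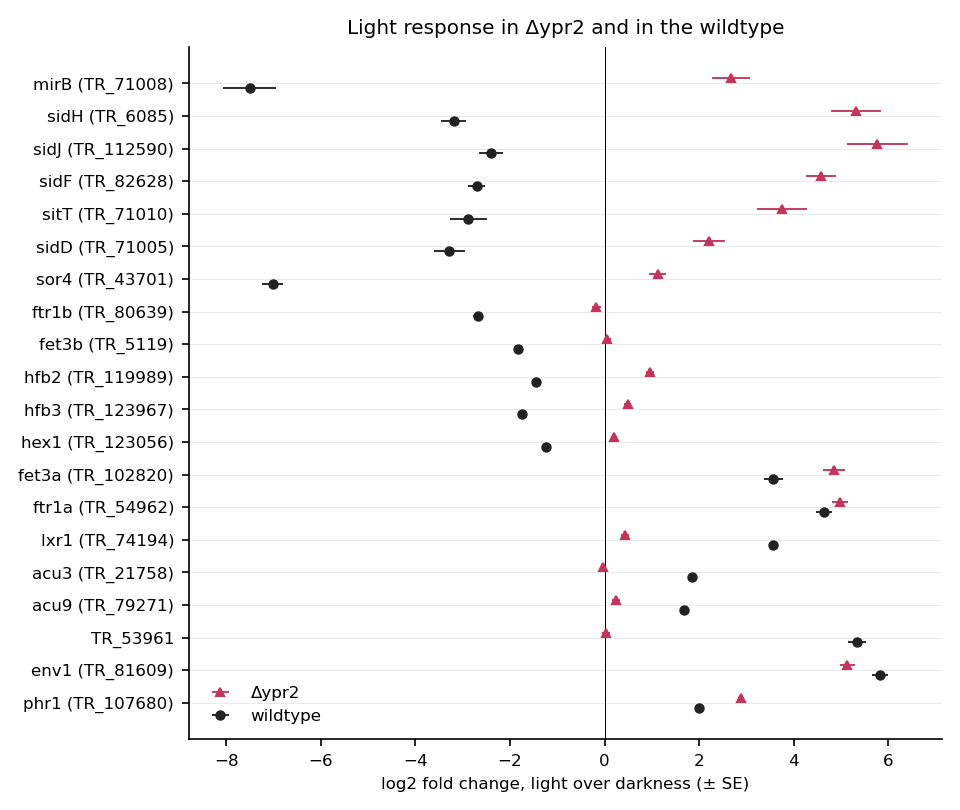
Log2 fold change of light over darkness (horizontal axis; points, estimates; error bars, SE, n = 2 cultures per condition) for 20 genes in Δypr2 (red triangles) and in the wildtype (black circles). The 6 siderophore genes and sor4 lie right of 0 in Δypr2 and left of 0 in the wildtype, while env1, phr1, fet3a and ftr1a lie right of 0 in both strains.

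At the 2-fold limit itself, TR_63727 was the last gene called as raised, with 84.4 and 84.1 CPM in light, against 42.2 and 41.98 CPM in darkness. TR_64420 was the first one left out, with 144 and 138 CPM in light, against 67.5 and 73.2 CPM in darkness. On the other side TR_58857 had 3.50 and 3.63 CPM in light, against 7.33 and 6.95 CPM in darkness, and was called. TR_70830 had 7.93 and 7.73 CPM in light, against 14.9 and 16.4 CPM in darkness, and was not called. These values show no gap at the limit, and the number of called genes depends on where it is set.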

How the data were processed

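Mycelium of T. reesei QM6a and Δypr2 from light and darkness was sequenced as single reads, with 2 cultures per strain and condition. Per the submitters' processing notes, the authors mapped with Bowtie2, processed the alignments with SAMtools and bedtools and quantified transcripts with RSEM, without versions in the sources used here. The deposited table holds expected counts per gene, unnormalized estimated counts that need not be whole, although the study's methods also mention FPKM. They were rounded to whole numbers.

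The table lists 9143 genes, and the 8469 genes with at least 0.5 CPM in at least 2 of the 8 libraries entered the test in edgeR 4.0.16 (R 4.3.3) with TMM scaling, 1 mean per group over all 8 libraries and the quasi-likelihood test, following the study's thresholds (2-fold, p under 0.01, here Benjamini-Hochberg adjusted and two-sided). CPM values are TMM-scaled, fitted log2 fold changes used a prior count of 0.125, and SE is that of the fit. limma 3.58.1 and DESeq2 1.42.0, other scalings, filters, limits, the replicate block and the omission of each library served as alternatives. For a group at 0, folds are bounds against 3 reads over both libraries, and for 1 to 3 reads ratios with 95% exact intervals.

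Gene names came from RefSeq symbols (235 of 9116 reference genes), the study's gene sheet (1142 genes, 1120 tested) and its text. The sheet was used for annotation only. Its groups were formed by words in that annotation, so that they can miss members or hold other genes. Genes to be named were drawn from the largest and the most abundant changes, members of the gene groups, of the 5 longest runs and of the genes with no light reads, the largest strain differences and the genes at the 2-fold limit, with exceptions stated. The members and gene groups were chosen with earlier results of these data known. Group medians include fitted values of genes at 0, and the median of -9.97 for cell wall degrading enzymes was the same with these at their bounds. Regulators of cellulase genes are not reported here.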

Additional observations from a re-analysis of the deposited data

Results flagged for a closer look

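For 55 of the named genes with more than 3 reads in each of the 4 groups, the light response differed between the strains in a direct test of that difference (edgeR quasi-likelihood, adjusted p under 0.01 and a difference of at least 1 on the log2 scale). Differences are log2 fold changes of light over darkness in Δypr2 minus those in the wildtype, from 2 cultures per condition, and the largest adjusted p among them was 0.0072. Groups of 2 cultures are too small for a check of single outlying samples.

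Of the genes lowered by light in the wildtype, 11 had a fold change of the opposite sign in Δypr2 at an adjusted p under 0.01 in that strain. They differed as follows: mirB (TR_71008) by 10.17, sidH (TR_6085) by 8.51, TR_75247 by 8.27, sidJ (TR_112590) by 8.16, sor4 (TR_43701) by 8.13, sidF (TR_82628) by 7.29, sitT (TR_71010) by 6.63, sidD (TR_71005) by 5.49, hfb2 (TR_119989) by 2.42, hfb3 (TR_123967) by 2.24 and predicted alamethicin synthase (TR_23171) by 1.96. In 3 more, the fold change in Δypr2 was slightly above 0 and missed that p, and the differences were those of fet3b (TR_5119) by 1.88, hex1 (TR_123056) by 1.42 and psa5 (TR_55644) by 1.20. A further 12 had a negative fold change nearer to 0 in Δypr2, namely TR_60751 by 3.09, TR_56682 by 2.78, TR_69652 by 2.61, ftr1b (TR_80639) by 2.50, TR_121350 by 2.48, chi18-rel1 (TR_65162) by 2.26, TR_106538 by 1.62, TR_73621 by 1.47, xyn2 (TR_123818) by 1.47, TR_111736 by 1.19, rsr1 (TR_76880) by 1.06 and TR_56717 by 1.01. In 3 genes the fall was larger in Δypr2, with differences for TR_76601 by -3.92, TR_120371 by -3.28 and chi18-12 (TR_43873) by -2.53.

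Of the genes raised by light in the wildtype, 5 had a fold change of the opposite sign in Δypr2 at an adjusted p under 0.01 there, and they differed as TR_62380 by -4.70, TR_67538 by -4.55, TR_105260 by -3.74, chi18-13 (TR_119859) by -2.40 and agl1 (TR_72632) by -2.37. In 3 more, the fold change in Δypr2 was slightly below 0 and missed that p, namely TR_21509 by -1.99, acu3 (TR_21758) by -1.87 and TR_62367 by -1.62. For 15 genes the fold change was positive but nearer to 0 in Δypr2, namely TR_53961 by -5.30, TR_50616 by -4.66, TR_69811 by -3.92, TR_34221 by -3.54, lxr1 (TR_74194) by -3.14, TR_124115 by -2.90, TR_44175 by -2.63, TR_111442 by -2.45, TR_72183 by -1.83, TR_122487 by -1.51, acu9 (TR_79271) by -1.44, TR_65153 by -1.38, TR_64018 by -1.36, TR_67013 by -1.31 and TR_122284 by -1.19. In 1 gene it was larger, fet3a (TR_102820) by 1.28. The remaining 2 genes were not called in the wildtype itself, cel5b (TR_82616) by -1.86 and sreA (TR_4231) by -1.59. The wildtype libraries enter both the choice of these genes and the difference, and the sizes are therefore a description.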

How the results depend on the processing

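The counts of called genes followed the fold limit more than any tool or scaling that was tried. Without a fold limit light changed 5196 genes (2549 raised, 2647 lowered), with a 4-fold limit 967 (271 raised, 696 lowered), and at an unadjusted p under 0.05 with no fold limit, an alternative chosen after seeing the data, 6302 (3143 raised, 3159 lowered). A test against a 2-fold change called 1384 genes, with 472 raised and 912 lowered. For the difference between the strains (1212 genes, 503 positive and 709 negative differences) the corresponding counts were 3161 (1528 positive, 1633 negative) without a fold limit, 430 (155 and 275) with a 4-fold limit, 4978 (2344 and 2634) at an unadjusted p under 0.05 with no fold limit, and 553 (228 and 325) in a test against a 2-fold change. Under the other tools, scalings and filters the wildtype count lay between 1693 (at least 5 CPM in 2 libraries) and 2136 (quantile normalization with limma-trend), with 2024 for RLE size factors, 2040 for upper quartile scaling, 2105 for library size only, 2031 with no low-count filter, 2000 for limma-voom, 2073 for the edgeR exact test, 1958 for DESeq2 and 2047 from the 4 wildtype libraries alone. Leaving out single libraries gave 1899 to 2047 genes in the wildtype and 1046 to 1313 for the strain difference. None of the called genes was called in the opposite direction under any of these alternatives.

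Library size scaling and quantile normalization moved the median of all genes up by 0.12 on the log2 scale each. The share of raised genes among those called was then 46.2% and 50.9% (1087 raised, 1049 lowered after quantile normalization), against 39.4% in the values reported, and log2 fold changes near -1 moved under the limit. The labels do not say whether replicate numbers pair the samples, and the samples were treated as unpaired. The deviations of same-numbered light and dark wildtype libraries correlated at r = 0.0014 across genes. With only 2 pairs this cannot show whether they share a batch or day. A fit that took the replicate number as a block called 2012 genes (789 raised, 1223 lowered) and 1201 for the strain difference. The block thus left the counts nearly as they were.

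Of the 112 named genes called in the wildtype, 10 lost the call in at least 1 of 21 alternatives that kept the 2-fold limit, and 0 changed sign. Of the genes not called, blr1 (TR_121962) lay so near 0 that its sign turned, to -0.00021 in the wildtype libraries alone, -0.012 with RLE size factors, -0.0039 with at least 5 CPM, -0.00050 with the replicate block, -0.00043 in limma-voom and -0.012 in DESeq2, and between -0.051 and 0.050 when single libraries were left out. Of 56 named strain differences 11 lost the call in at least 1 of 19 alternatives. Runs of at least 4 neighbours numbered 7 raised and 35 lowered. The 32 raised and 83 lowered runs of at least 3 became 215 and 239 without a fold limit, 315 and 318 at an unadjusted p under 0.05, 4 and 45 with a 4-fold limit, 5 and 53 in the test against a 2-fold change, and 20 and 50 with at least 5 CPM in 2 libraries, and the raised runs became 50 after quantile normalization. The planned search for promoter motifs was not run, as no promoter sequences of this organism were used here.

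With 2 cultures per condition the smallest p of an exact permutation test is 0.333 for any 1 gene, and all calls rest on a spread shared across genes and groups. Depth limits the genes with 0 to 3 reads in light, for which only bounds or intervals are given. CPM values are shares of each library, and absolute RNA amounts were not measured.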

Other observations

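Further groups of the study's sheet, again genes picked from these libraries, were close to the shares over that sheet or held few genes. Of 26 peptidase genes 9 (34.6%) were raised and 8 (30.8%) lowered in light, against 31.4% and 27.8% of the sheet. Of 9 amino acid transporter genes 2 were raised and 1 lowered, and of 6 ABC transporter genes 2 were raised and 2 lowered. Grouped under sulfur metabolism by words in their annotation were 4 genes, most of them for sulfite oxidases, of which 3 were lowered and 1 raised. The sulfite oxidase gene TR_76601 had 0.273 and 0.519 CPM in light, against 6.46 and 7.18 CPM in darkness. The sulfite oxidase gene TR_106695 had 2.24 and 2.37 CPM in light, against 12.4 and 9.79 CPM in darkness. Both were lowered, with log2 fold changes of -4.09 ± 0.65 and -2.27 ± 0.19, whereas the sulfite oxidase gene TR_62367 was raised, with 23.5 and 27.9 CPM in light, against 8.91 and 10.2 CPM in darkness (log2 fold change 1.43 ± 0.12). The arginine biosynthesis gene arg2 (TR_122226) had 554 and 601 CPM in light, against 206 and 229.9 CPM in darkness (log2 fold change 1.41 ± 0.08). It was the 1 raised gene of 9 for polyamine and amino acid metabolism by RefSeq symbol. This share of 11.1% is near the 9.40% raised among all genes tested.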
